A study of Mus musculus with 2 samples.

Results

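The microRNA genes described here lie inside the mouse gene Sfmbt2, on its strand, and carry a symbol that starts with Mir297, Mir466, Mir467 or Mir669. By position and symbol, 59 of the 1973 gene rows in the tables met this rule. They were measured in whole hearts of B6NCrl mouse embryos at embryonic day 12.5, from pooled males and females without treatment. There was 1 group of 2 biological replicates with 1 library of microRNA-sized RNA each, so no conditions could be compared. Both replicates name the same donor record but separate tissue samples, and how many embryos each pooled is not given in the sources used here. Whole heart holds several cell types, and in such bulk RNA fewer cells of a type and less RNA per cell cannot be told apart.

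Sfmbt2 encodes a Polycomb group protein with MBT domains and is known as an imprinted gene, read from the paternal allele in extraembryonic tissue. A large intron of the rodent gene holds a tandem array of microRNA hairpins built from repeats, known above all from placenta, where the array is required for normal growth. A microRNA is cut from such a hairpin as a strand of about the length of a read, and bases 2 to 8 of the mature strand, its seed, lead it to target messages. Within the families, miR-467 has been linked to thrombospondin-1 and blood vessel growth, and miR-669a to the restraint of skeletal muscle differentiation in cardiac progenitors.

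The hairpins of these families are rich in alternating TG and CA steps, which mature strands of relatives outside Sfmbt2 show. For the 59 members, 0 sequences were matched by symbol in the RefSeq microRNA table (GRCm38.p6). Of the 10 genes of the same families elsewhere in the genome, 8 had a mature strand there, with 8 different seeds. Shown are the 1 relative with any count, Mir466q, and 3 relatives whose seeds recur in member hairpins to very different extents, 5′ to 3′ with the seed in capitals.
miR-466q: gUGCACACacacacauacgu
miR-466k: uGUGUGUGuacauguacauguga
miR-467g: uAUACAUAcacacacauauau
miR-467h: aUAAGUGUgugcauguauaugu
On the hairpin's own strand, AUACAUA, the seed of miR-467g, was found in 50 of 59 member hairpins (84.7%), against 4.28% of the other mouse microRNA hairpins. GUGUGUG of miR-466k was found in 52.5% of members and 8.24% of the others, and it overlaps itself in longer GU repeats. UGCACAC of miR-466q was found in 20.3% and 2.12%. UAAGUGU of miR-467h was found in 1 member, Mir467e, and in 0.598% of the others. In the RefSeq table miR-466q lies at chr3:28419988-28420007 and miR-466k at chr3:85467396-85467418, both on the plus strand, miR-467g at chr5:34732872-34732892 on the minus strand and miR-467h at chr9:115381898-115381919 on the plus strand. The whole mature strands of these 4 relatives occurred in 0 member hairpins. A match is a description of letters, and mature strands of the members themselves were not used here.

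By GENCODE M21 on GRCm38, all 59 members lie in 1 intron of 62472 bases, on the plus strand of chromosome 2 from 10461473 to 10523944, counted as intron 10 or intron 11 in the annotated transcripts. The first member, Mir466m, starts at 10466663 and the last, Mir669h, ends at 10518279, a span of 51617 bases. The Mir466 and Mir669 families have 20 members each, Mir467 has 14 and Mir297 has 5. Hairpins were 73 to 127 bases long, with a median of 90. TG, GT, CA and AC steps made up a median of 51.2% of all neighbouring base pairs in member hairpins (32.5% to 66.7%), against a median of 26.8% in 2173 other hairpins. Mir467 genes recur at a near-constant step: of 13 distances between neighbouring Mir467 starts, 11 lay between 2300 and 2600 bases, with a median of 2450 bases. The release lists 12 more genes of these families in the same intron, all Mir466 or Mir669, which are not rows of the tables and were not analysed here.

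Levels are given as CPM, the sense count of a gene scaled to the library's total of sense counts over all gene rows. Each read covers about a whole mature strand, so levels were not divided by length. Genes differ in how much of their hairpin is shared with other hairpins, as described further on, so an order of levels between genes is an order of the counted reads. Replicate 1 held 4478599 sense counts and replicate 2 held 5279908, and a count of 0 allowed up to 0.670 and 0.568 CPM. Intervals and limits cover counting error only, since no molecular identifiers are stated. As markers of the labelled tissue, the listed heart muscle microRNAs Mir208a, Mir208b and Mir499 stood at 62941 ± 1438 CPM in sum (SD, n = 2). Outside this list, the muscle microRNAs Mir1a-1 and Mir133a-2 stood at only 3.6 and 0.981 CPM. How far reads aligned to more than 1 place would change any of these levels was not tested. The markers of other cell types were at 67897 ± 1234 CPM for endothelium, 89645 ± 1208 for smooth muscle and 1368 ± 626 for red blood cell precursors. The stem and trophoblast cell list stood at 222.5 ± 37.7 CPM over its 6 genes (SD, n = 2), with Mir292a under its RefSeq symbol Mir292. This list holds genes of the mir-290 cluster only. Outside it, the pluripotency microRNAs Mir302a, Mir302d, Mir302b and Mir302c stood at 2189, 1653, 1159 and 236.3 CPM, and Mir367 at 1.95 CPM.

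Reads assigned to this microRNA cluster were a small but clearly measured part of the heart libraries. Reads aligned to more than 1 place are not among them, as described further on, so the values here hold assigned reads only. Members had 14742 sense counts in replicate 1, or 3292 CPM, and 16544 in replicate 2, or 3133 CPM. These are 0.329% (95% exact binomial interval 0.324 to 0.335) and 0.313% (0.309 to 0.318) of all sense counts. The intervals did not overlap, so the libraries differed by more than counting error. A count was found at 24 of 59 members (40.7%), beside 36.1% of all 1973 gene rows. At least 10 counts in total were found at 12 (20.3%), beside 22.5% of all rows, and 10 CPM in both libraries at 7 (11.9%), beside 14.4%. The shares of members were near those of all rows. Among genes with any count the median level was 0.967 CPM for members and 2.53 CPM over all 712 such genes.

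Nearly all of the signal came from 6 members, 3 of family Mir467 and 3 of family Mir669. Mir467d was highest, with 4337 counts in replicate 1 and 4988 in replicate 2. Its level was 968 CPM (95% exact Poisson interval 940 to 998) and 945 CPM (919 to 971), a mean of 956.5 ± 16.7 (SD, n = 2). Mir467c had 4274 and 4699 counts, 954 and 890.0 CPM. Both genes stood at nearly the same level and their values overlapped between replicates, so their order is not fixed (Mir467d over Mir467c within a library, ratio 1.04 ± 0.0331, SD, n = 2). Mir467e, the third, had 3570 and 4011 counts, 797 and 760 CPM. It lay below Mir467c in both libraries, which exceeded it by a ratio of 1.18 ± 0.0182 (SD, n = 2). Together these 3 genes held 82.7% ± 0.120 (SD, n = 2) of the members' counts. They ranked 82, 85 and 92 among all gene rows.

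The next 3 were of family Mir669. Mir669o had 1190 and 1309 counts, 266 and 248 CPM. Mir669l had 867 and 960 counts, 194 and 182 CPM. Mir669c had 341 and 377 counts, 76.1 and 71.4 CPM. The replicates of these genes did not overlap with each other or with those of Mir467e. Mir467e exceeded Mir669o by a ratio of 3.03 ± 0.0454 (SD, n = 2), Mir669o exceeded Mir669l by 1.37 ± 0.00637 (SD, n = 2) and Mir669l exceeded Mir669c by 2.54 ± 0.00276 (SD, n = 2). The first 6 genes made up 98.8% ± 0.0730 (SD, n = 2) of the members' counts. The steps between them were many times their spread, except that from Mir467d to Mir467c.

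Positions of these 6 genes on chromosome 2, plus strand, GRCm38 with GENCODE M21, are as follows. Mir669l (ENSMUSG00000076959.1) lies from 10468971 to 10469068 and Mir467c (ENSMUSG00000077049.2) from 10473931 to 10474027. Mir467e (ENSMUSG00000076948.2) lies from 10505721 to 10505807 and Mir467d (ENSMUSG00000077021.2) from 10507630 to 10507714. Mir669c (ENSMUSG00000076118.1) lies from 10509296 to 10509404 and Mir669o (ENSMUSG00000077086.1) from 10514300 to 10514395.

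**Figure D1:**
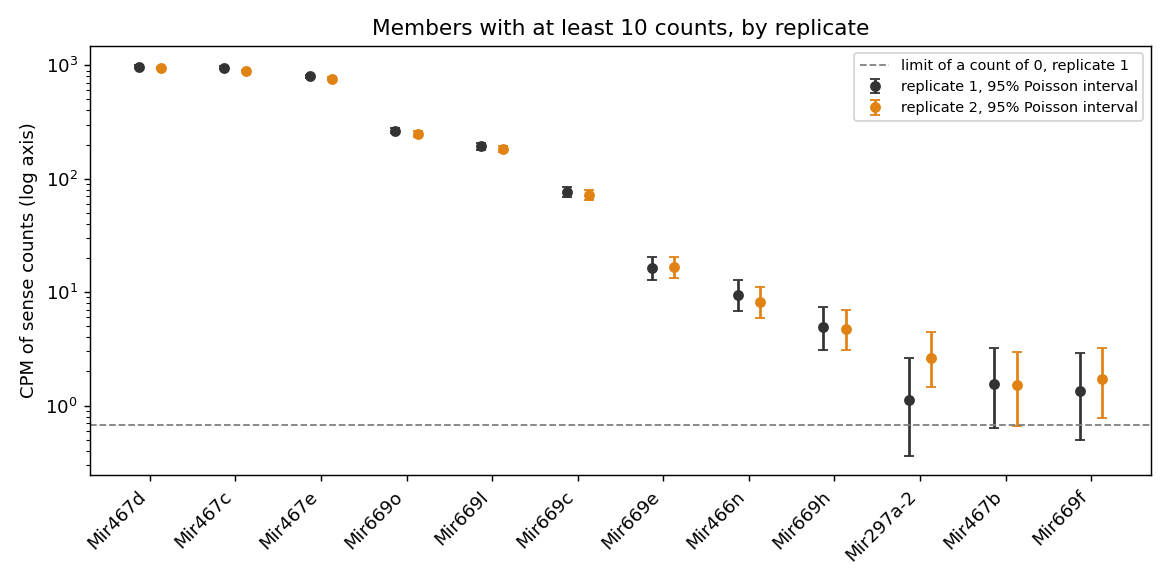
CPM of sense counts on a log axis for the 12 members with at least 10 counts in total, with 1 point per replicate and its 95% exact Poisson interval; the dashed line is the limit of a count of 0 in replicate 1. Mir467d, Mir467c and Mir467e lie between 760 and 968 CPM, while Mir297a-2, Mir467b and Mir669f lie between 1.12 and 2.65 CPM with overlapping intervals.

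A further 6 members had at least 10 counts in total but stood far lower. Mir669e had 73 and 88 counts, 16.3 and 16.7 CPM. Mir466n, the highest of the Mir466 family, had 42 and 43 counts, 9.38 and 8.14 CPM. Mir669h, the last member of the array, had 22 and 25 counts, 4.91 and 4.73 CPM. These 3 genes kept this order in both libraries without overlap. Mir297a-2 had 5 and 14 counts, Mir467b had 7 and 8, and Mir669f had 6 and 9. The levels of these last 3, from 1.12 to 2.65 CPM, overlapped between replicates, so their order is not fixed. The low Mir467b stood at 1.54 ± 0.0338 CPM (SD, n = 2), although its relatives Mir467c, Mir467d and Mir467e stood between 760 and 968 CPM.

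The remaining members had few or no assigned reads. With 1 to 9 counts there were 12 members, 8 counts in replicate 1 and 13 in replicate 2 in all. Mir466g had 4 counts in total and Mir466h, known as a microRNA that promotes cell death in cultured cells, had 3. Mir466p, Mir466, Mir297b and Mir466l, the last known for binding the Il10 message, had 2 each. Mir466m, Mir466f-3, Mir669a-3, Mir467a-1, Mir466b-3 and Mir669m-1 had 1 each. The other 35 members had 0 counts in both libraries. On the opposite strand the members had 0 counts in both libraries.

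By family, Mir467 took 82.8% ± 0.125 (SD, n = 2) of the members' counts, Mir669 16.8% ± 0.147, Mir466 0.323% ± 0.00371 and Mir297 0.0661% ± 0.0263 (each SD, n = 2). The Mir466 family was as large as Mir669 but had 1 member with at least 10 counts, against 6 of 20 for Mir669 and 4 of 14 for Mir467. The median member had 0 counts in each of the 4 families. Thus family totals rest on few genes, above all the Mir467 total on Mir467c, Mir467d and Mir467e.

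**Figure D2:**
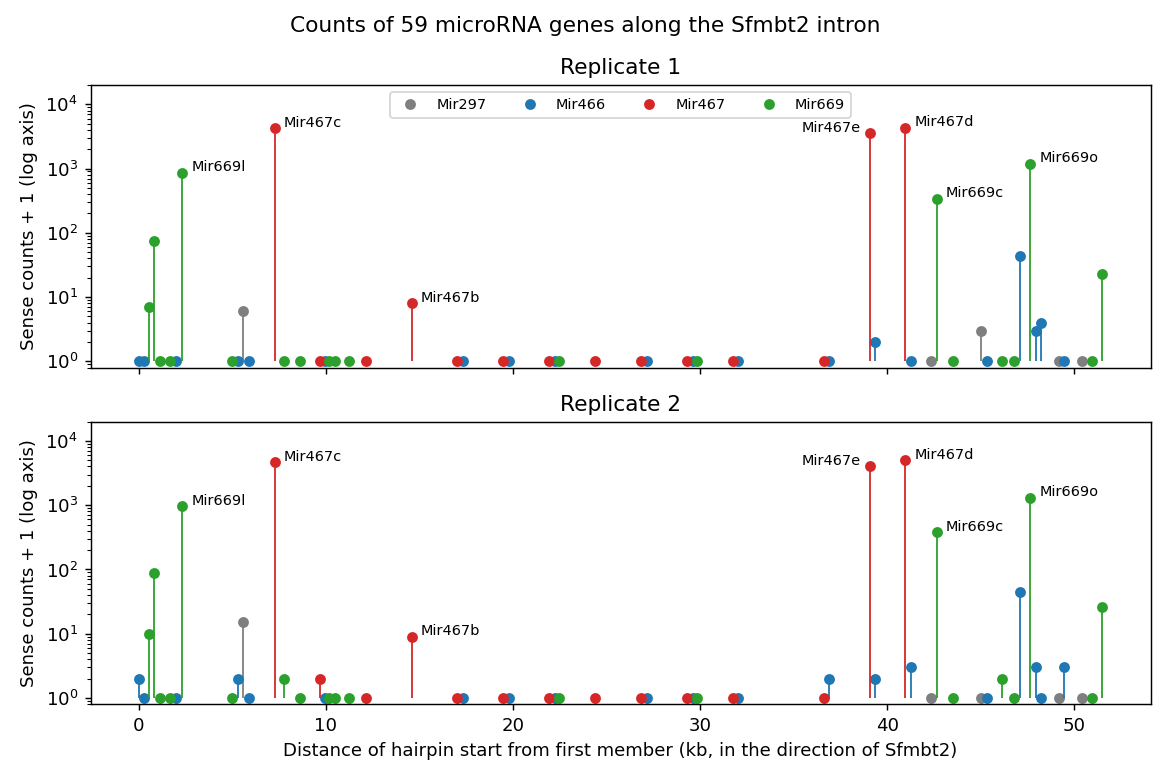
Sense counts plus 1 on a log axis for all 59 members along the intron, as distance of the hairpin start from the first member in kb, coloured by family, with 1 panel per replicate. High counts stand at both ends of the array, and between Mir467c and Mir467e no member exceeds the 8 counts of Mir467b in a library.

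Along the intron the counts stood at the edges of the array. The stretch from Mir467c to Mir467e was chosen after the values were seen, so the following is a description. Between these genes, over 29213 bases, lie 26 members, and they had 7 and 11 counts in replicates 1 and 2. Mir467b alone gave 7 and 8 of these. The 33 members at or outside both genes had 14735 and 16533 counts. The pattern was the same in both libraries. Level and position gave a Spearman rho of 0.122 over 59 members, which share libraries, an intron and repeat sequence, so counts did not run steadily from the 5′ to the 3′ end.

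The middle of the array is also where hairpins are near-identical copies. To describe this, each hairpin was read in windows of 22 bases, and a window was called distinct if it occurred in no other mouse microRNA hairpin on either strand, among 2232 hairpins. Of the 26 members of the middle stretch, 19 had no distinct window, against 1 of the 33 others. The Mir467a genes are the clearest case: Mir467a-2, Mir467a-4, Mir467a-5, Mir467a-7, Mir467a-8 and Mir467a-9 have the same 83-base hairpin, and Mir467a-3, Mir467a-6 and Mir467a-10 share another of that length. All 10 Mir467a genes together had 0 distinct windows, 0 counts in replicate 1 and 1 in replicate 2. Mir466b-4 with Mir466b-6, Mir466b-5 with Mir466b-7, and Mir669p-1 with Mir669p-2 are further identical pairs. In all, 15 members fall into 5 sets of identical hairpins, and these 15 had 0 counts.

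Reads aligned to more than 1 place have a line of their own in the tables and enter the count of no gene. Levels of near-identical copies are therefore uncertain, and a count of 0 there is not a measurement of absence. Such reads were 27.1% of the library in replicate 1 and 25.3% in replicate 2, or 170 and 162 for each read counted to a member. How many of them came from this array was not tested.

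Among the Mir467 genes with at least 10 counts, Mir467c had 48 distinct windows of 76, Mir467e 39 of 66 and Mir467d 25 of 64. On the 5′ side of the hairpin, these were 18 of 38, 20 of 33 and 19 of 32 windows. Mir467b had 0 of 26 distinct windows on its 5′ side and 11 of 26 on its 3′ side. It was counted at 1.54 CPM. The longest stretch that Mir467b shares with another member is 62 bases, with Mir467a-3, Mir467a-6 and Mir467a-10. For Mir467d it is 60 bases, also with Mir467a genes, and Mir467c and Mir467e share 48 bases with each other. The levels of all 4 are uncertain to the extent that reads from shared stretches were not assigned.

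**Figure D3:**
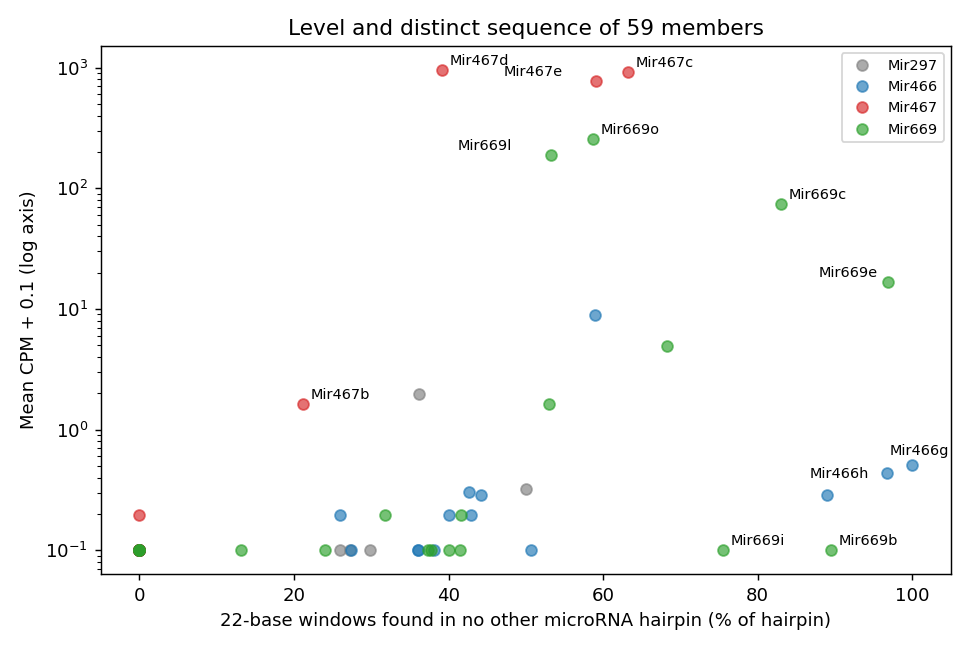
Mean CPM plus 0.1 on a log axis against the percentage of each hairpin's 22-base windows found in no other microRNA hairpin, with 1 point per member, coloured by family. The 20 members at 0% have at most 1 count in total, and Mir669b and Mir669i are at 0 counts with most of their windows distinct.

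Over all 59 members, the 20 without a distinct window had 1 count in all, and the 39 others held every other count. The Spearman rho between the percentage of distinct windows and level was 0.668 over 59 members. Among the 12 members with at least 10 counts it was 0.266. These points share libraries and hairpins, and the correlation is a description. Reads aligned to more than 1 place were not counted, and how far this counting rule sets the correlation was not tested. Distinct sequence did not go with a high level in every gene. Mir466g was distinct in all 59 of its windows and had 2 counts in each library. Mir669b was distinct in 89.5% of windows and Mir669i in 75.5%, and both had 0 counts. By the limit of 3 counts, this allows up to 0.670 CPM of assigned reads in replicate 1. Mir669b had 30 of 38 distinct windows on its 5′ side and 38 of 38 on its 3′ side. For Mir669i these were 27 of 53 and 53 of 53. Mir466f-1, distinct in 50.7%, also had 0 counts, with 5 of 36 distinct windows on its 5′ side and 32 of 37 on its 3′ side. Windows were compared with microRNA hairpins only, and copies elsewhere in the genome were not searched. Mir669e, at 96.9%, stood at 16.5 ± 0.260 CPM (SD, n = 2), far below Mir467d, at 39.1%.

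The 2 libraries gave nearly the same levels for the well-counted members. Ratios below are CPM of replicate 2 over replicate 1. The ratio was 0.976 for Mir467d (95% counting interval 0.936 to 1.02), 0.953 for Mir467e (0.911 to 0.997), 0.933 for Mir669o (0.862 to 1.01), 0.939 for Mir669l (0.856 to 1.03) and 0.938 for Mir669c (0.808 to 1.09). Of the 12 members with at least 10 counts, 11 lay within 2-fold, beside 94.4% of all 444 such genes. The exception was Mir297a-2 with 5 and 14 counts, a ratio of 2.38 whose interval, 0.808 to 8.43, includes no difference. Lower in replicate 2 were 9 of the 12, beside 50.2% of the 444 genes, with a median log2 ratio of −0.06. The count of 9 was the same with scaling by edgeR's TMM and by DESeq2's size factors. These members come from 1 locus and are not independent.

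Each gene's pair of counts was then compared between the libraries by an exact binomial test, two-sided, with Benjamini-Hochberg adjustment over 712 genes. Of the members, 1 of 24 members tested passed an adjusted p of 0.05, beside 16.7% of all genes tested. This was Mir467c, lower in replicate 2 (ratio 0.933, 95% counting interval 0.895 to 0.972, adjusted p = 0.00702), where 8.71% of all genes passed in that direction and 8.01% passed in the other, in which 0 members passed. With a 2-fold ratio required, 0 of 24 members passed, beside 0.421% of genes. Of the 24 members, 12 had 1 to 9 counts in total, too few for most differences to pass. With the test limited to genes with at least 10 counts, 1 of 12 members passed an adjusted p of 0.05, beside 128 of 444 genes. At an unadjusted p of 0.05, Mir467e passed as well. The call of Mir467c was lost with TMM scaling and in the edgeR exact test. The test holds counting error alone and compares 2 libraries, so it shows no difference beyond the spread between replicates.

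**Figure D4:**
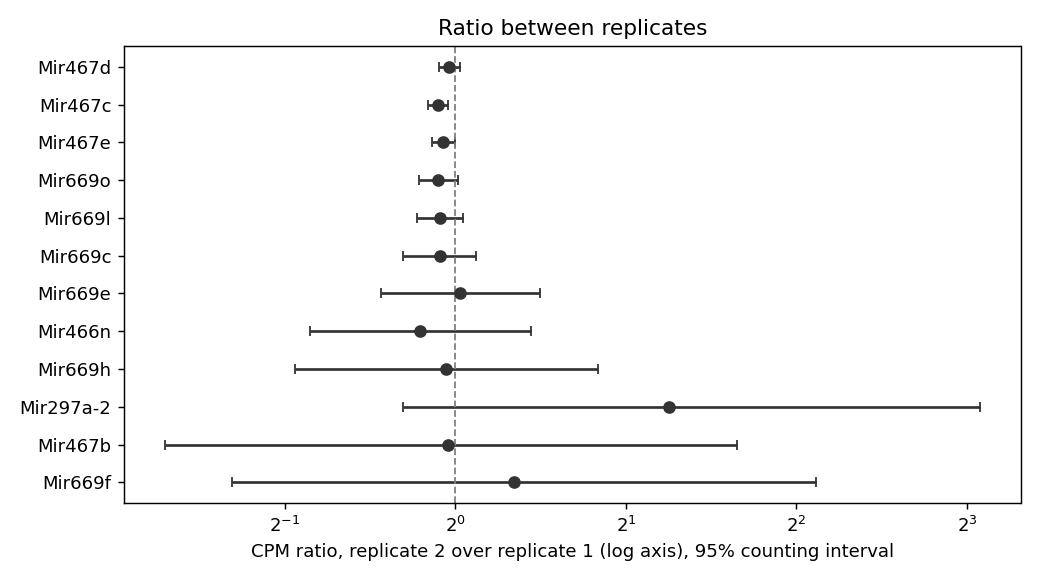
Ratio of CPM in replicate 2 over replicate 1 on a log axis for the 12 members with at least 10 counts, with 95% counting intervals and a dashed line at a ratio of 1. The 6 highest members lie between 0.933 and 0.976, and the interval of Mir297a-2 runs from 0.808 to 8.43.

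Genes of the same families outside Sfmbt2 were almost without counts in these hearts. The 10 such genes in the tables had 0 counts in replicate 1 and 3 in replicate 2, all 3 of them at Mir466q on chromosome 3. In replicate 1 the members' summed counts were at least 4914-fold higher, against the limit of 3 counts for the group. In replicate 2 the ratio was 5515, with a 95% counting interval of 1887 to 26744. A further 48 microRNA rows lie in Sfmbt2 under other symbols, and these had 6 and 12 counts, with 6 genes counted and at most 8 counts in total for a gene. With 2 libraries, no permutation test of such a difference could pass 0.05, so the values stand with their spread alone. Shared sequence was described for the members only. How far reads aligned to more than 1 place would change the counts of the 10 genes elsewhere or the 48 other rows was not tested.

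A pair of other clusters was set beside the array, the imprinted Dlk1-Dio3 microRNAs of chromosome 12, which like Sfmbt2 are subject to parental imprinting, and the mir-290 cluster of pluripotent and trophoblast cells. The 49 Dlk1-Dio3 genes from Mir770 to Mir410 summed to 49029 ± 1713 CPM (SD, n = 2), and their sum exceeded that of the Sfmbt2 array by a ratio of 15.3 in both libraries. The counts were also less concentrated there, with 40.1% ± 0.0435 (SD, n = 2) on the 3 highest genes, against 82.7% ± 0.120 in the Sfmbt2 array. A count was found at 45 of the 49 genes, and the median gene stood at 185.3 CPM, against 0 CPM for the median member. Among the members, 20 had no distinct window and 27 had none on the 5′ side of the hairpin. A count of 0 is not a measurement of absence there, nor for reads from shared stretches of other hairpins. The 7 genes of the mir-290 cluster summed to 257 and 204 CPM, and the Sfmbt2 array exceeded them by a ratio of 14.1 ± 1.82 (SD, n = 2). The 3 highest mir-290 genes held 86.4% ± 1.35 (SD, n = 2) of that cluster's counts. A share of 3 genes out of 7 is not a like measure to 3 out of 49 or 59. These differences between sums were many times the spread between the libraries. The part that reads aligned to several places would add to each sum, and how they would change the medians and shares, was not tested.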

How the data were processed

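The authors deposited 1 table of raw counts of reads per microRNA gene for each library, without pooling. Assembly mm10 and annotation M4 come from the text deposited with the tables; the aligner, the counter and any filters were not given in the sources used here. The 3 count columns have no names. From their values they were read as counts without regard to strand, sense counts and opposite-strand counts. The 4 opening rows that name no gene stayed out of library sizes, among them reads that fit several places and unmapped reads (18.1% and 19.1%).

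Identifiers were matched without version to release M21 of GENCODE, whose GRCm38 coordinates are those of mm10, for 1894 of 1973 rows. CPM used all sense gene counts (48.5% and 49.8% of 9235580 and 10601121 reads). Correlations used log2(CPM + 1). Hairpin windows came from M21 transcripts and 30 further RefSeq hairpins; no genome sequence was used. The exact binomial test was checked on simulated counts with counting error only, so the check does not cover the spread between replicates. The libraries are biological replicates per the labels, and mean ± SD is over both. Every member with at least 10 counts in total was named with its counts. Members and lists were chosen with earlier results of these data known. Software was Python 3.11.15, scipy 1.17.1, R 4.3.3, edgeR 4.0.16 and DESeq2 1.42.0. Alternatives changed strand, denominator, scaling, filter, test and window length, and left out each replicate.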

Additional observations from a re-analysis of the deposited data

Results flagged for a closer look

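Reads aligned to more than 1 place lie outside the counts of all genes and enter no level given for the array. They were 27.1% of all reads in replicate 1 and 25.3% in replicate 2. These are values of the whole libraries, the tables do not tie the reads to genes, and the part that belongs to the Sfmbt2 array was not tested.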

How the results depend on the processing

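The cluster's share of 0.321% was 0.307% with counts without regard to strand, 0.158% of all reads and 0.812% without the 10 most abundant genes, changes that follow from the denominators. The median level of the 12 members with at least 10 counts, 45.1 CPM, was 43.1 without regard to strand and 22.2 with all reads as the denominator. The 1 member called between replicates, Mir467c, became 0 with TMM scaling of the binomial test (1 member at an unadjusted p under 0.05, 114 genes called). Mir467c was also not called in the edgeR exact test. That test cannot decide on the call, since its dispersion came from the same 2 libraries taken as 1 group. Mir467c was called with DESeq2 size factors and among genes with 10 counts. The rho of distinct windows and level, 0.668, was 0.678 with 18-base windows, 0.266 among members with 10 counts, and 0.596 to 0.600 with a replicate left out. Leaving out a replicate gave 0.0434 to 0.126 for the rho with position; the cause was not tested. Members with at least 10 counts numbered 9 to 10 in single libraries and 9 at a minimum of 30. Copies elsewhere in the genome were not run. No paired analysis was possible because the samples form 1 group. Depth limits the precision of members under 10 counts. How far near-identical copies limit each member was not tested.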

Other observations

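Among microRNA rows in Sfmbt2 under other symbols, the highest was Gm22925 with 3 and 5 counts in replicates 1 and 2, at 0.808 CPM, followed by Gm22072 with 1 and 3 counts, at 0.396 CPM. Both were named after their values were seen.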
